A study of Mus musculus with 6 samples.

Results

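Interferon-stimulated antiviral genes are the genes that cells switch on when interferon reaches them, and 35 of them were followed here in the inflamed mouse colon, out of 18194 genes that the arrays measured with a probe set assigned to 1 gene. They were taken from a written list, and each gene was read from its single-gene probe set with the highest mean over the 6 arrays. Of the 35, 33 had such a probe set, and 30 of those exceeded log2 4 on at least 3 arrays and were tested among 10491 genes. Ifi44 and Isg15 had no probe set assigned to them alone, and Oas3, Mx1 and Mx2 stayed below the filter.

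The animals were C57BL/6 littermates aged 6 to 8 weeks, all carrying the floxed allele (PPAR g fl/fl) and all given 2.5% dextran sodium sulfate (DSS), which injures the colonic lining, with tissue taken on day 7. The 3 deficient mice also carried Lysozyme M cre+, which removes Pparg in macrophages, neutrophils and related myeloid cells, and the 3 control mice were Lysozyme M cre-. Whole colon RNA of each mouse was hybridised to 1 Affymetrix mouse expression array, and no sample without DSS was analysed here. Pparg codes for a nuclear receptor, PPAR gamma, which dampens inflammatory gene expression in macrophages. Cells other than myeloid cells kept the gene, Cre was present in the deficient mice alone, and an effect of Cre itself cannot be told apart from loss of the receptor.

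Type I and type III interferons bind their receptors, activate the kinases Jak1 and Tyk2 and assemble a complex with Stat2 and Irf9 that binds the interferon-stimulated response element of antiviral genes. Interferon gamma acts on a different element, the gamma-activated site. The products detect viral RNA, degrade it, block its translation or hold virions at the membrane, and in the gut they are kept at a resting level by signals from the microbiota.

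Small intestine genes were high on control replicate 1 and on deficient replicate 3: the summed log2 level of 9 enterocyte markers was 108.81 and 95.82 there and 47.24 to 63.12 on the other 4 arrays. Colonocyte markers, 8 in number, summed to 49.18 and 57.22 on these 2 arrays and to 75.52 to 81.53 on the other 4. Among them Car1 read 2.83 and 7.02 against 13.60 to 15.32, while Car4 read 11.02 and 13.37 against 11.89 to 13.16. The labels name colonic tissue for all 6 samples. Differences are therefore given over all 6 arrays, over the 4 arrays without small intestine genes, and between these 2. Pparg itself read 5.28, 9.91 and 9.54 in control replicates 1 to 3 and 8.77, 8.23 and 4.15 in deficient replicates 1 to 3, so that the groups overlapped (difference -1.19, standard error 1.73, limma adjusted p 0.88). Over the 4 arrays Pparg was lower on both deficient arrays (difference -1.22, limma adjusted p 0.285), and between the other 2 the difference was -1.13. The Cre cassette of this line is inserted in Lyz2, the gene of lysozyme M, and Lyz2 read 12.32, 11.79 and 12.19 in controls and 6.80, 6.24 and 10.39 in deficient samples, so that its groups separated as labelled. Xist, a transcript of the female inactive X chromosome, stood at 12.11 on control replicate 2 and at the floor of 2.25 on the others. Between 41.4% and 42.7% of probe sets exceeded log2 4 on each array, and the 3' minus 5' log2 difference of the actin control probes was 0.71 on control replicate 1 and 0.86 to 1.07 on the others.

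Over all 6 arrays the interferon-stimulated genes stood slightly higher in the deficient samples, and no member passed the test. Of 30 members 23 were higher (57.0% of all genes tested were) and 7 lower, with a median log2 difference of 0.40 against 0.06 over all genes. No member had a limma adjusted p (Benjamini-Hochberg over 10491 genes) under 0.05, and neither did any other gene. At an unadjusted limma p under 0.05, 4 members were higher, Ifih1, Ifit2, Oas1a and Bst2 (background 5.10%), and 1 was lower, Irf7 (background 2.36%). These 5 were also the members whose groups did not overlap, 4 higher (background 9.36%) and 1 lower (background 4.15%). The 4 higher members are 13.3% of those tested, not far above these backgrounds. The count higher at an unadjusted p under 0.05 was 8 without control replicate 1 (background 6.97%) and 6 without deficient replicate 3. It was 2 without control replicate 2, control replicate 3 or deficient replicate 2, and 1 without deficient replicate 1. Apart from the fit without control replicate 1, the share of all genes is not given for these fits, so their counts have no background. The median difference was 0.18 without control replicate 3, against 0.08 over all genes. With the bowel profile of the arrays as a block, 5 members were higher (background 8.11%) and 1 lower (background 5.34%) at that threshold; Oas1a was no longer among the higher ones, and Ifitm3 and Parp14 joined them. A difference of at least 1 log2 unit in size was found for 4 members, Ifit2, Usp18, Bst2 and Ifitm3 (background 7.05%).

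**Figure D1:**
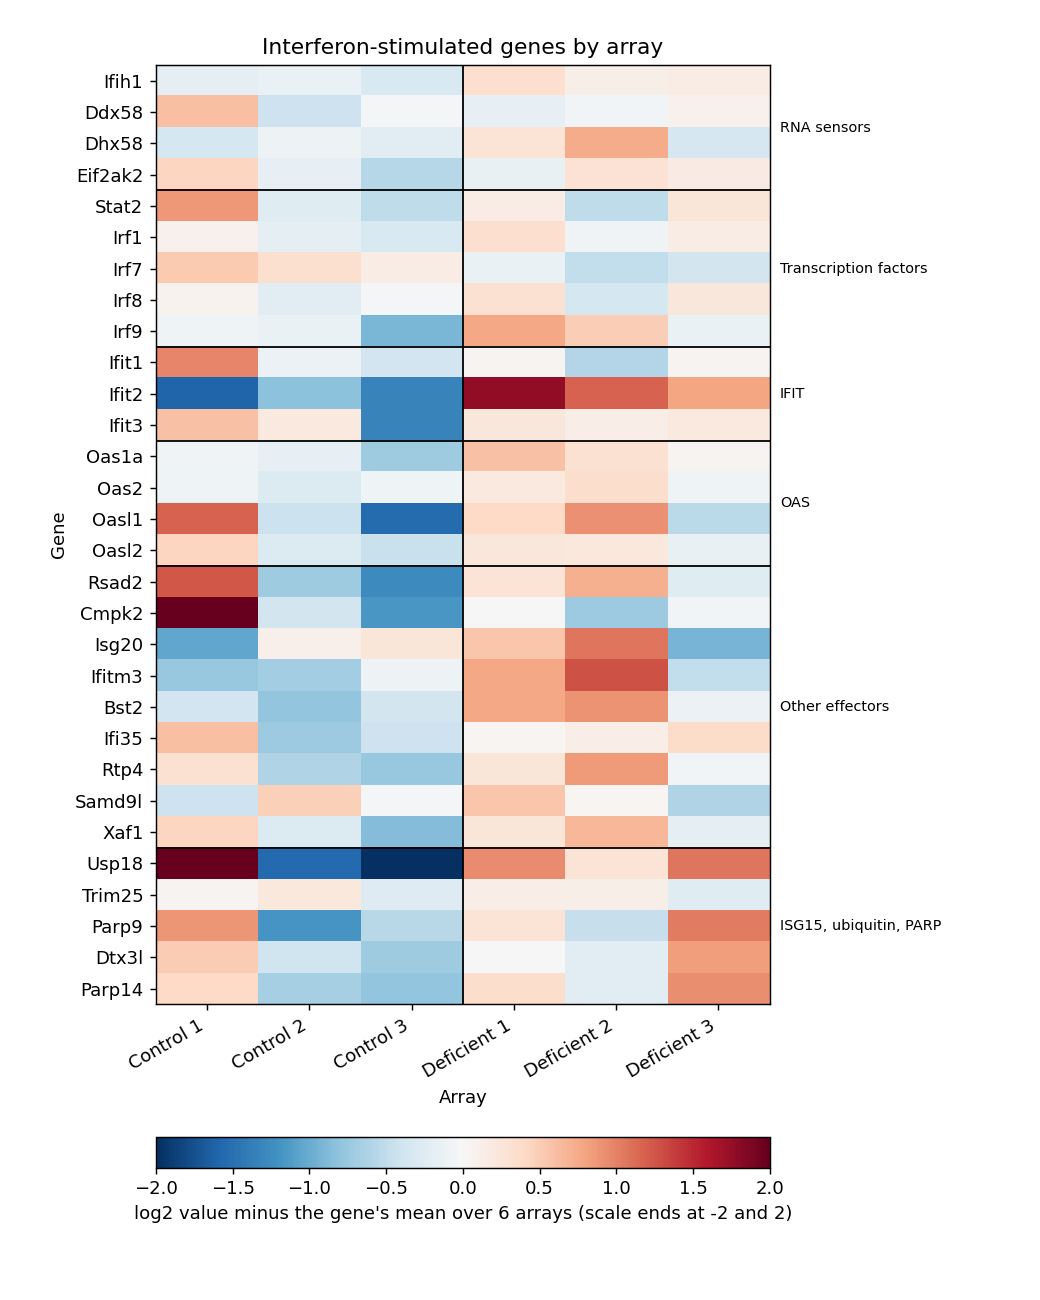
Log2 value of each of the 30 tested members (rows, grouped by role) on each of the 6 arrays (columns), shown as the difference from that gene's own mean. Ifit2 is low on all 3 control and high on all 3 deficient arrays, while Usp18, Cmpk2, Rsad2 and Oasl1 are highest on control replicate 1.

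The members' differences were larger once the 2 arrays high in small intestine genes were left out. Among the remaining 4 arrays 28 of 30 members were higher (background 58.3%), with a median of 0.65 against 0.08 over all genes. In 21 members both deficient arrays exceeded both control arrays (background 30.5%), and in 1, Irf7, both lay below (background 18.4%). At an unadjusted limma p under 0.05, 14 were higher (background 9.0%) and 0 lower (background 4.93%), while 0 passed after adjustment, where Ifit2 had the lowest adjusted p of the members, 0.233. Between the 2 arrays with small intestine genes 12 members were higher in the deficient sample (background 50.4%), with a median of -0.22. Control replicate 1, one of the arrays left out, was above both other controls for 21 of 30 members (background 36.6%). Leaving it out lowers their control mean by construction. The values over the 4 arrays are therefore a description and not separate evidence.

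**Figure D2:**
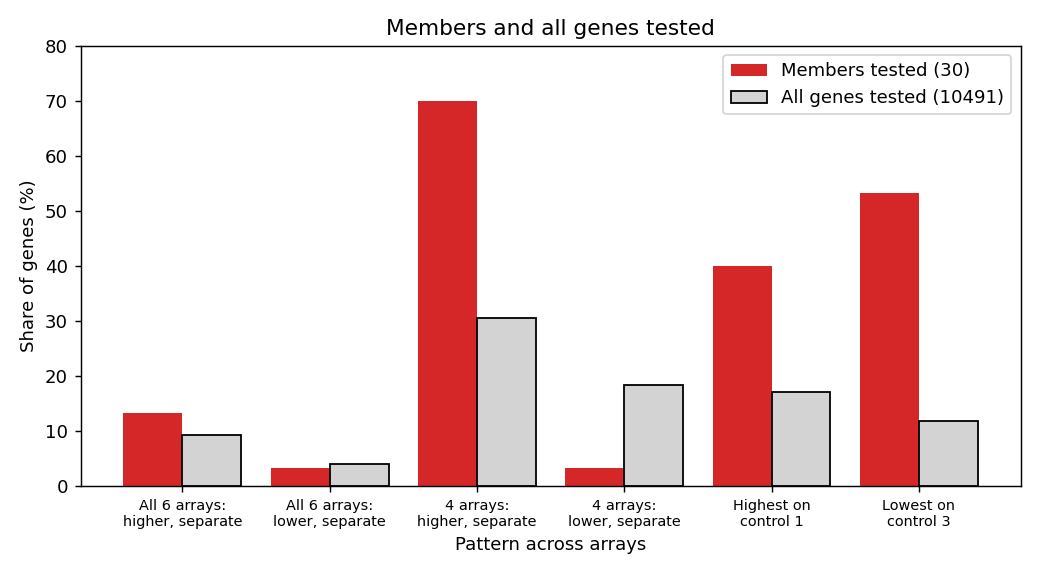
Share of the 30 tested members (red) and of all 10491 genes tested (grey) that show each pattern across arrays, in percent; separate means that the values of the 2 groups do not overlap. Among 4 arrays 70.0% of members and 30.5% of all genes were higher and separate, and 40.0% of members and 17.2% of all genes were highest on control replicate 1.

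The difference between these settings was tested as an interaction of genotype with the bowel profile of the arrays, a division read from the data and not from the labels. On the arrays with small intestine genes the genotype difference comes from 1 control and 1 deficient array, so that the other 4 arrays alone supply the error. No member passed (smallest limma adjusted p 0.9), and none of the other genes did (smallest 0.237). At an unadjusted p under 0.05, 8 members had a lower genotype difference on the arrays with small intestine genes (background 3.28%) and 0 a higher one (background 1.88%). The 8 were Rsad2, Oasl1, Usp18, Cmpk2, Oasl2, Rtp4, Xaf1 and Bst2. The level of control replicate 1 enters this interaction directly, so these 8 are not separate evidence either.

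**Figure D3:**
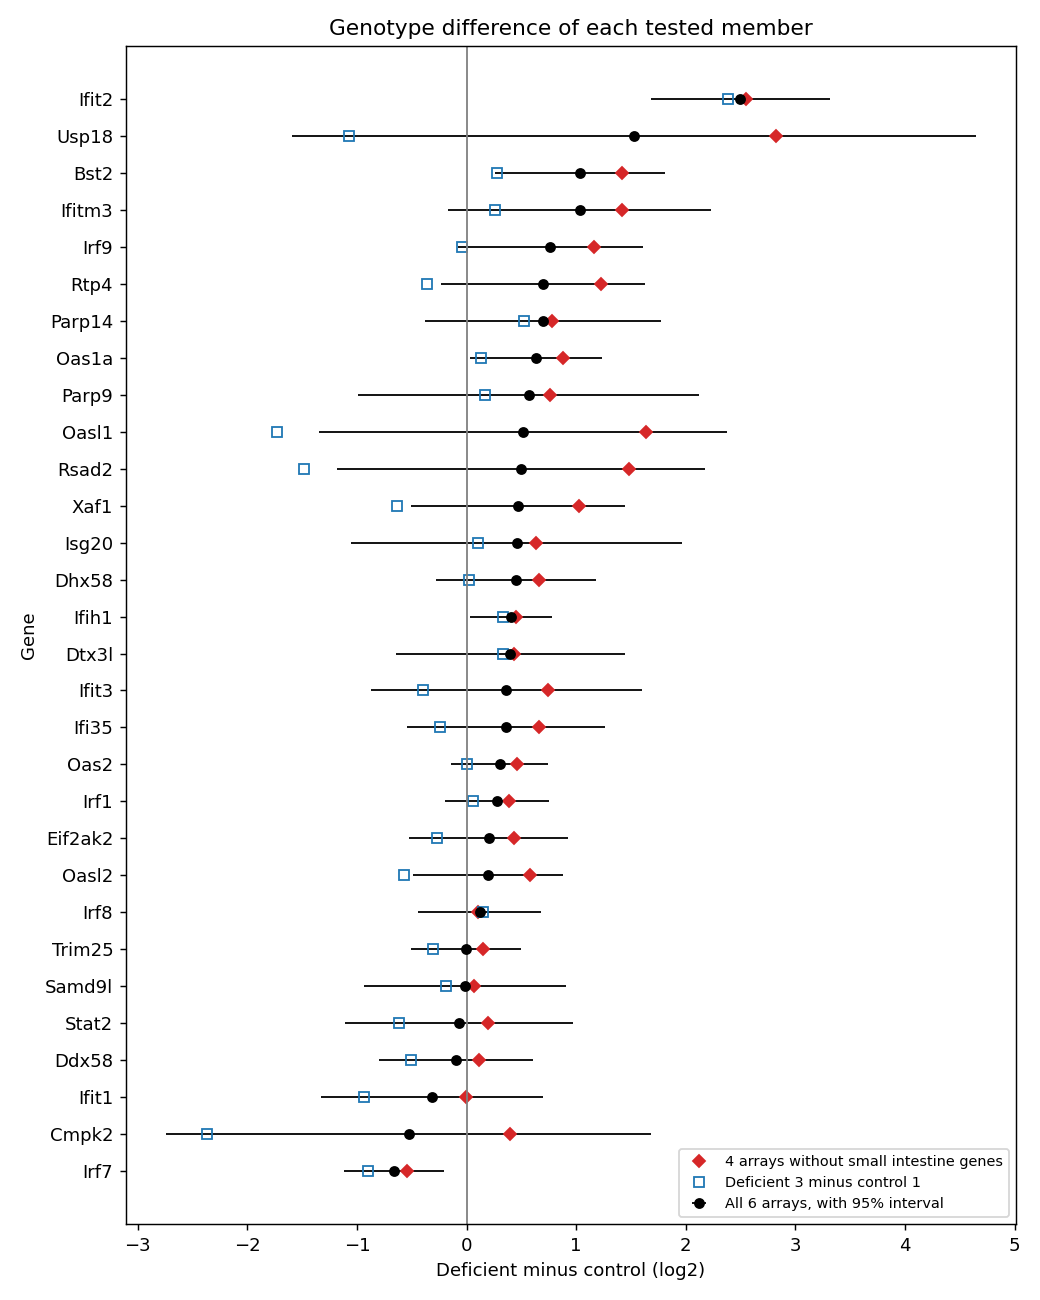
Deficient minus control log2 difference of each tested member over all 6 arrays (black, bar: 95% interval), over the 4 arrays without small intestine genes (red) and between the 2 arrays with them (blue). Ifit2 lies between 2.39 and 2.55 in all 3, whereas Usp18 runs from -1.08 to 2.83 and Oasl1 from -1.73 to 1.64.

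Promoter sequences are shown for Ifit2 and its neighbours Ifit1 and Ifit3, for Bst2, Oas1a and Irf7, 3 of the other 4 members whose groups separated, and for Irf1 as an example of the gamma-activated site, since the pathway acts through short elements near the start of each gene. The stretches are from RefSeq (GRCm38.p6), read 5′ to 3′ on the gene's strand, and capitals mark matches to the core of the interferon-stimulated response element, GAAANNGAAA, on either strand, or in Irf1 to the gamma-activated site TTCNNNGAA. Overlapping matches run together.
Ifit1: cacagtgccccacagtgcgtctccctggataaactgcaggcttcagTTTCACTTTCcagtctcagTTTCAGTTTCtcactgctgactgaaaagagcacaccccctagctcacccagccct
Ifit3: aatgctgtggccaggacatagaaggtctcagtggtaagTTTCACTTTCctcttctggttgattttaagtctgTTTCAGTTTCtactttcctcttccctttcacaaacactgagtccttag
Ifit2: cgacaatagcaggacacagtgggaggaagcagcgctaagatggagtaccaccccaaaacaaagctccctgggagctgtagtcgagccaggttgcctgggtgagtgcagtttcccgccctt
Bst2: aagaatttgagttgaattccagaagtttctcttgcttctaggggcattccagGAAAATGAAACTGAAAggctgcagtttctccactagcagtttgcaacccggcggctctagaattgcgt
Oas1a: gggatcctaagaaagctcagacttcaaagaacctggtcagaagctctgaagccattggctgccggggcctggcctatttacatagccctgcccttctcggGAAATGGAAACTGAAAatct
Irf1: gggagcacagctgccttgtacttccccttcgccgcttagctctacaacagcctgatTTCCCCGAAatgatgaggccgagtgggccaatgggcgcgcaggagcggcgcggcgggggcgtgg
Irf7: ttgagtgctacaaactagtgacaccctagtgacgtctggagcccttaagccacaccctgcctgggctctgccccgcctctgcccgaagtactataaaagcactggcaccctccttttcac

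The stretches lie at chr19:34640739-34640858 for Ifit1, chr19:34583335-34583454 for Ifit3 and chr19:34550574-34550693 for Ifit2, all on the plus strand, at chr8:71537535-71537654 for Bst2, chr5:120907526-120907645 for Oas1a and chr7:141266425-141266544 for Irf7, all on the minus strand, and at chr11:53769868-53769987 on the plus strand for Irf1. Each lies upstream of the annotated start. Ifit1 and Ifit3 held the same pair of matched letters, TTTCACTTTC and TTTCAGTTTC, which begin 104 and 85 bases before the start of Ifit1 and 156 and 122 bases before that of Ifit3. Bst2 and Oas1a each held 2 overlapping matches, which begin 130 and 124 bases before the start of Bst2 and 20 and 14 bases before that of Oas1a. The match in Irf1 begins 90 bases before the start. In the 250 bases before the start, GAAANNGAAA was found for 8 of 27 members with a RefSeq promoter entry (29.6%) and for 3.46% of all 27025 genes with one, and TTCNNNGAA for 7 of 27 (25.9%) and 8.13% of genes. No match to GAAANNGAAA was found before either of the 2 annotated starts of Ifit2 or before that of Irf7. TTCNNNGAA had 1 match for each of Ifit2, Bst2 and Oas1a, not marked by capitals, and 0 for Irf7. Ifih1, the other member whose groups separated, had 0 matches to both motifs and its promoter is not shown.

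Among the RNA sensors, Ifih1, which encodes MDA5 and recognises long double-stranded RNA, was higher on all 3 deficient arrays by a small and even step. Control replicates 1 to 3 read 8.77, 8.80 and 8.64, and deficient replicates 1 to 3 read 9.27, 9.06 and 9.09. The log2 difference was 0.41 (95% interval 0.04 to 0.78, limma adjusted p 0.667), 0.45 over the 4 arrays and 0.33 between the 2 with small intestine genes. Dhx58, which encodes LGP2, a helicase that modulates RNA sensing, read 4.24, 4.49 and 4.37 in controls and 4.86, 5.33 and 4.25 in deficient samples. Its groups overlapped through deficient replicate 3, close to the filter level (difference 0.45 ± 0.30 standard error, adjusted p 0.747).

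Ddx58, which encodes RIG-I, the sensor of short RNA with a 5' triphosphate, showed no separation. It read 7.52, 6.52 and 6.88 in controls and 6.75, 6.87 and 7.01 in deficient samples, a difference of -0.09 with a 95% interval of -0.80 to 0.61 (limma adjusted p 0.952). Control replicate 1 was its highest array, and over the 4 arrays the difference was 0.11. Eif2ak2, the kinase PKR that halts translation, was likewise highest on control replicate 1 by its brightest probe set, with a difference of 0.20. The other 2 probe sets differed by 0.47 and 0.0026 and were highest on deficient replicates 2 and 3. On the one that differed by 0.47 the groups did not overlap, at 7.16, 7.03 and 6.64 in controls and 7.20, 7.76 and 7.26 in deficient samples. The probe sets of Eif2ak2 thus disagree.

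The transcription factors differed in direction. Irf7, the master regulator of the second wave of type I interferon, was the one member lower on every deficient array: 8.03, 7.82 and 7.65 in controls against 7.37, 7.01 and 7.13 in deficient samples. Its difference was -0.66 (95% interval -1.11 to -0.20, limma adjusted p 0.659), and it kept its sign over the 4 arrays (-0.54) and between the 2 with small intestine genes (-0.90). Irf9, the DNA-binding partner of Stat2, pointed the other way, at 7.04, 7.00 and 6.21 in controls and 7.91, 7.63 and 7.00 in deficient samples. Its groups met at deficient replicate 3, and the difference of 0.76 (standard error 0.34, adjusted p 0.685) became 1.17 over the 4 arrays and -0.04 between the other 2.

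Stat2, Irf1 and Irf8 had overlapping groups. Stat2, the partner of Irf9, differed by -0.07 (95% interval -1.11 to 0.97) and was highest, at 5.47, on control replicate 1, with 4.09 to 4.85 on the other arrays. Irf1, a factor induced strongly by interferon gamma, ranged only from 9.88 to 10.53 over the 6 arrays and differed by 0.28 (95% interval -0.20 to 0.75). Irf8, a factor of macrophages, dendritic cells and B cells, differed by 0.12 (95% interval -0.44 to 0.68), with 0.27 on its other probe set.

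The IFIT genes, neighbours in one gene cluster, differed from one another. They encode tetratricopeptide proteins that bind foreign RNA or hold back its translation; in the RefSeq gene order Ifit2 and Ifit3 adjoin, and 3 genes lie between Ifit3 and Ifit1. Ifit2 stood at 6.34, 7.12 and 6.60 in control replicates 1 to 3 and at 9.71, 9.12 and 8.73 in deficient replicates 1 to 3. The lowest deficient array lay well above the highest control array. The difference was 2.50 (95% interval 1.68 to 3.31, 9.18 ± 0.50 against 6.69 ± 0.39, SD, n = 3 each), with a limma adjusted p of 0.536, the smallest among members.

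Ifit1 and Ifit3 did not share this pattern. Ifit1 read 9.54, 8.44 and 8.17 in controls and 8.62, 7.97 and 8.61 in deficient samples, a difference of -0.32 (95% interval -1.33 to 0.70, adjusted p 0.873). Ifit3 read 6.70, 6.31 and 4.78 in controls and 6.34, 6.24 and 6.31 in deficient samples, a difference of 0.36 (95% interval -0.88 to 1.60). Both were highest on control replicate 1, the array on which Ifit2 was lowest. Ifit3 has a near-identical copy, Ifit3b, whose RNA its probes may also bind.

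The gap between Ifit2 and its neighbours was compared within each array, a comparison chosen after the values were seen. The log2 value of Ifit2 minus that of Ifit1 was -3.20, -1.32 and -1.57 in controls and 1.09, 1.14 and 0.12 in deficient samples, so that the groups separated by genotype. It differed between genotypes by 2.81, and the same contrast with Ifit3 by 2.13, values that follow from the differences already given. An exact permutation test gave a p of 0.1 for each, the smallest possible with 3 against 3 arrays. That test cannot decide, and both contrasts are given as a description. The unequal differences were also seen on the 4 arrays, where Ifit2 differed by 2.55, Ifit3 by 0.74 and Ifit1 by -0.01, and between the 2 with small intestine genes, at 2.39, -0.40 and -0.93. Ifit1, Ifit2 and Ifit3 are each measured by 1 probe set, so no second probe set checks these values.

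**Figure D4:**
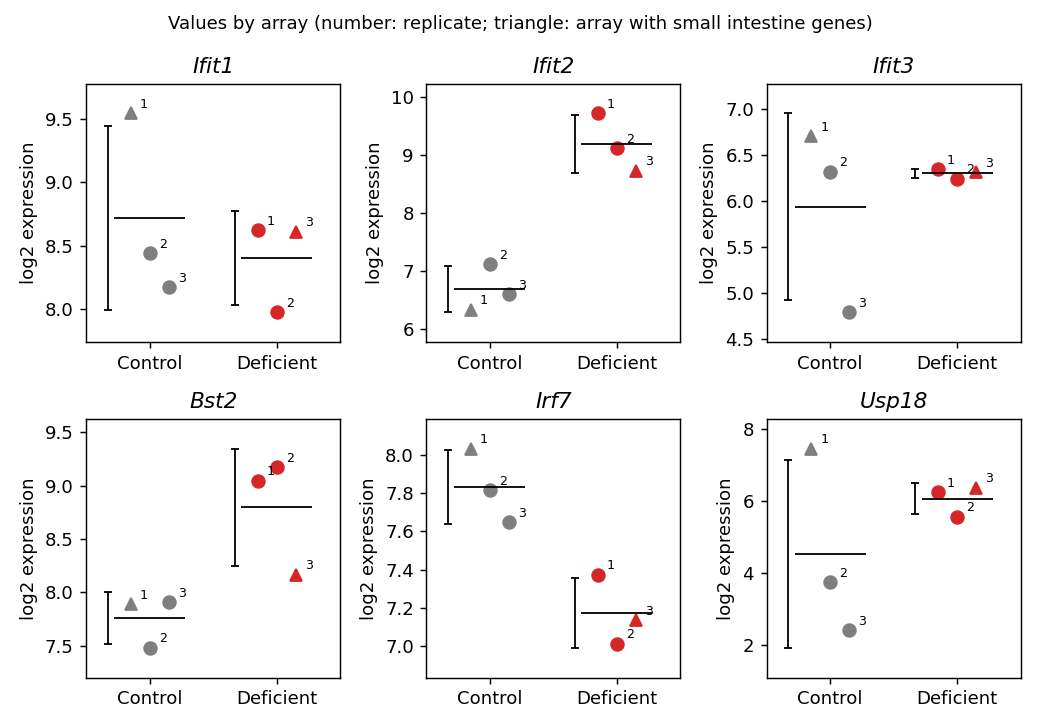
Log2 expression of 6 members by group on separate vertical scales; each point is 1 array numbered by replicate, triangles are the arrays with small intestine genes, lines are group means and bars are SD. Ifit2 and Bst2 are higher and Irf7 lower on all 3 deficient arrays, while the groups of Ifit1 and Ifit3 overlap on several arrays and those of Usp18 through control replicate 1.

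Of the oligoadenylate synthetase genes, which make the messenger that activates RNase L against viral RNA, 4 of 5 were tested and all 4 were higher without passing the test. Oas1a, an active synthetase, read 9.53, 9.43 and 8.90 in controls and 10.19, 9.90 and 9.66 in deficient samples. Its groups did not overlap, though deficient replicate 3 exceeded control replicate 1 by only 0.13, and the difference was 0.63 (95% interval 0.03 to 1.23, limma adjusted p 0.667). Close paralogues of Oas1a exist, so its probe set may also report on them. Oas2 differed by 0.30 at a level between 4.38 and 5.01, and Oas3 lay at the floor, at 2.26 on all arrays.

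The 2 OAS-like genes lie next to each other and were both highest on control replicate 1. Oasl2 read 7.55, 6.84 and 6.68 in controls and 7.35, 7.33 and 6.98 in deficient samples, a difference of 0.19 (95% interval -0.49 to 0.88, adjusted p 0.879) that was 0.58 over the 4 arrays and -0.57 between the other 2. Oasl1, which restrains translation of Irf7 messenger RNA, varied more, at 8.38, 6.78 and 5.67 in controls and 7.60, 8.12 and 6.65 in deficient samples. It is named after its values were seen, with a difference of 0.52 over all arrays, 1.64 over 4 and -1.73 between the other 2.

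Among membrane and other effectors, Bst2, or tetherin, which holds budding virions at the cell surface, was higher on all deficient arrays. It read 7.89, 7.48 and 7.91 in controls and 9.05, 9.17 and 8.17 in deficient samples, a difference of 1.03 (95% interval 0.25 to 1.81, limma adjusted p 0.659). The step was 1.41 over the 4 arrays and 0.27 between the 2 with small intestine genes. Bst2 is also a surface marker of plasmacytoid dendritic cells. Of 5 other markers of these cells 3 were higher in deficient samples, with summed log2 levels of 34.67 to 35.05 in controls and 35.02 to 35.66 in deficient samples. The even sum hides opposite moves. Klk1 read 11.23 on control replicate 1 and 11.82 to 15.12 elsewhere, whereas Ccr9 read 7.43 there and 2.75 to 5.02 elsewhere. Ly6d and Tcf4 differed by 0.95 and 0.25, and Klk1 and Ccr9 by -0.41 and -0.44. Siglech, the defining marker of these cells, stayed between 2.26 and 2.29 on all 6 arrays. It lay at the floor and counts as higher by only 0.01. The count and the sum are therefore not a measure of these cells. The part of these cells in the value of Bst2 was not tested. Ifitm3, which blocks the fusion of virions in endosomes, was named after its values were seen. It read 11.80, 11.87 and 12.45 in controls and 13.33, 13.83 and 12.06 in deficient samples, and deficient replicate 3 alone fell within the control range (difference 1.03, 95% interval -0.17 to 2.23, adjusted p 0.695).

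Cmpk2 and Rsad2, adjoining genes that work in one pathway, shared control replicate 1 as their highest array. Cmpk2 is a mitochondrial nucleotide kinase that supplies CTP for viperin, the product of Rsad2, which converts CTP into a chain terminator of viral RNA synthesis. Cmpk2 read 8.79, 6.11 and 5.32 in controls and 6.46, 5.76 and 6.42 in deficient samples, a difference of -0.53 (95% interval -2.74 to 1.69, adjusted p 0.901) that was 0.39 over the 4 arrays. Rsad2, named after its values were seen, read 7.82, 5.88 and 5.31 against 6.86, 7.30 and 6.34, a difference of 0.50 over all arrays and of 1.49 over 4. On its 2 dimmer probe sets Rsad2 was also highest on control replicate 1, with differences of -0.51 and 0.21.

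The other 5 tested effectors ranged from -0.02 for Samd9l to 0.70 for Rtp4, and each had overlapping groups. Rtp4, a receptor transporter that inhibits viral replication, and Xaf1, an antagonist of inhibitors of apoptosis, differed by 0.70 and 0.47 over all arrays and by 1.22 and 1.02 over 4. Isg20, an RNA exonuclease, was instead low on both arrays with small intestine genes, at 5.69 and 5.79 against 6.82 to 7.78 on the others. Ifi35 differed by 0.36 on its brightest probe set, 0.28 and 0.06 on its other 2, and was highest on control replicate 1 by each. Mx1 and Mx2, which encode dynamin-like antiviral GTPases and which RefSeq lists as transcribed pseudogenes in its C57BL/6J assembly, lay between 2.27 and 3.28 on all arrays, under the filter.

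Genes of the Isg15 conjugation system and of the PARP family formed the last group. Usp18, the protease that removes Isg15 from proteins and blocks the type I interferon receptor, had the widest spread of all members. It read 7.44, 3.74 and 2.42 in controls and 6.25, 5.57 and 6.37 in deficient samples, so that the deficient arrays were close together and control replicate 1 lay above them. Its difference was 1.52 over all arrays (95% interval -1.60 to 4.65, limma adjusted p 0.79), 2.98 without control replicate 1 (adjusted p 0.301) and 2.83 over the 4 arrays (adjusted p 0.263). It was 0.91 with values under log2 4 set to 4 and 0.47 without control replicate 3. Trim25, the ubiquitin ligase that activates RIG-I, read 10.47, 10.62 and 10.15 in controls and 10.54, 10.52 and 10.17 in deficient samples, a difference of -0.01 (95% interval -0.51 to 0.50, adjusted p 0.998). Its dimmest probe set differed by 0.62 and was highest on control replicate 1, at 6.86, and deficient replicate 3, also at 6.86, so the probe sets of Trim25 disagree.

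Dtx3l, Parp9 and Parp14 lie side by side in the genome and were high on both arrays with small intestine genes. Dtx3l and Parp9 encode a ubiquitin ligase and its partner, which act together in DNA repair and interferon signalling, and Parp14 encodes a mono-ADP-ribosyltransferase. On control replicate 1 Parp9 read 9.47 and on deficient replicate 3 it read 9.63, with 7.42 to 8.87 elsewhere. Dtx3l read 9.43 and 9.76 against 8.22 to 8.92, and Parp14 read 9.14 and 9.66 against 7.95 to 9.08. Their genotype differences were 0.57, 0.40 and 0.70 with overlapping groups, and 0.77, 0.43 and 0.78 over the 4 arrays. The 3 genes are described together after their values were seen.

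Control replicate 1 stood apart for many members. It was the highest array for 12 of 30 (background 17.2%) and above both other controls for 21 (background 36.6%), and its median excess over the other controls was 0.79 log2 units against -0.02 over all genes. Deficient replicate 3, the other array with small intestine genes, was above both other deficient arrays for 7 of 30 (background 29.6%), with a median of -0.22. Relative to each gene's mean, the members' median was 0.42 on control replicate 1, -0.27 and -0.48 on control replicates 2 and 3, and 0.27, 0.17 and -0.0022 on deficient replicates 1 to 3. The highest array was deficient replicate 1 for 7 members (background 10.9%), deficient replicate 2 for 7 (background 28.9%), deficient replicate 3 for 3 (background 13.3%), control replicate 2 for 1 (background 14.7%) and control replicate 3 for 0 (background 14.9%). Control replicate 3 was the lowest array for 16 of 30 (background 11.9%). Control replicate 2 was lowest for 5 (background 24.1%), control replicate 1 for 4 (background 21.7%), deficient replicate 2 for 4 (background 18.1%), deficient replicate 3 for 1 (background 18.3%) and deficient replicate 1 for 0 (background 5.92%).

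**Figure D5:**
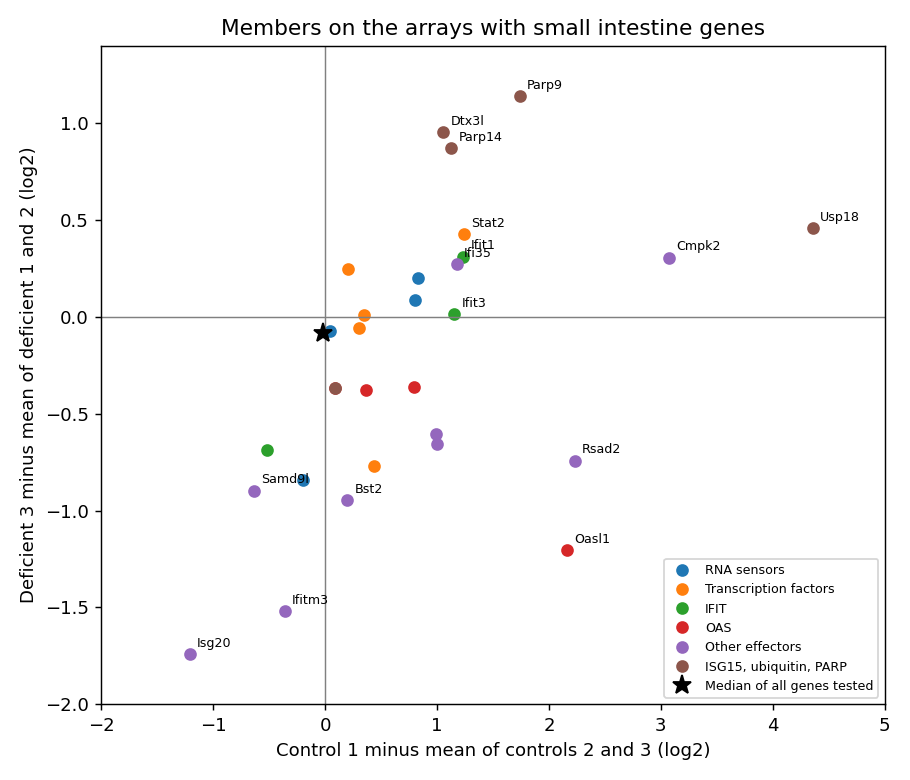
Each point is a tested member: log2 value on control replicate 1 minus the mean of the other 2 controls (horizontal) against deficient replicate 3 minus the mean of the other 2 deficient arrays (vertical), coloured by role; the star is the median of all genes. Usp18 (4.36) and Cmpk2 (3.07) lie far to the right, Parp9, Dtx3l and Parp14 are raised on both axes, and Isg20 is low on both.

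Without control replicate 1 the members' shift was larger. For the 21 members above both other controls on that array, leaving it out raises the difference by construction. The values of the fit without it are therefore a description and not separate evidence. In that fit 28 of 30 were higher (background 55.7%), 16 had every deficient array above both remaining controls (background 18.9%), 1 had every deficient array below them (background 13.0%), 1 was lower at an unadjusted p under 0.05 (background 4.38%) and 8 were higher at that threshold (background 6.97%). The median difference was 0.62. No member passed after adjustment there, with 0.29 for Ifit2 as the members' lowest limma adjusted p. Markers of T and natural killer cells moved with control replicate 1: their summed log2 level over 8 genes was 39.24 there and 27.16 to 31.91 on the other arrays. That list ran from 28.74 to 39.24 in controls and from 27.16 to 31.91 in deficient samples, 0 of 8 genes were higher in deficient samples, and Cd4, Cd2 and Ncr1 lay under log2 4 on all arrays. Markers of B and plasma cells summed to 33.92 on that array and to 21.74 to 28.01 elsewhere, with Cd79a, Ms4a1 and Pax5 under log2 4 on all arrays. The part of these cells in the members' values was not tested.

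Markers of myeloid cells were mostly higher in deficient samples. Of 12 macrophage markers 11 were higher in deficient samples, with summed log2 levels of 93.44 to 100.22 in controls and 100.89 to 112.01 in deficient samples. Lyz2 was the one lower marker. Of 4 general leukocyte markers all 4 were higher, at 31.91 to 32.57 against 33.31 to 38.90, and of 7 neutrophil markers all 7 were, at 26.43 to 35.66 against 36.12 to 56.85, with Cxcr2 at the floor on every array and higher by only 0.02. In whole tissue a larger number of such cells and more RNA of a gene per cell cannot be told apart, and the part of myeloid cells in the members' values was not tested. The sums of epithelial markers differed little between the groups, at 78.21 to 82.05 against 78.49 to 79.78. Single markers varied more between arrays. On the 2 arrays with small intestine genes Vil1 read 13.49 and 12.60, against 10.95 to 11.59 elsewhere. Krt20 read 14.27 and 13.80 there against 12.70 to 13.30, and Krt18, in the other direction, 12.14 and 11.81 against 12.23 to 12.90.

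The interferons that act upstream lay under the filter wherever they had a probe set of their own. Ifnb1, the fibroblast type I interferon, lay between 2.49 and 2.57 on all arrays, and Ifng, interferon gamma, at 2.25, so that no genotype difference could be measured. Of 11 listed ligand genes 6 had a probe set of their own, and the type III interferons Ifnl2 and Ifnl3 were among those not measured. Only Ebi3, a subunit of interleukins 27 and 35, was tested, with a difference of 0.51 (limma adjusted p 0.742). All 6 receptor genes were tested, 3 higher and 3 lower with a median of -0.009. Ifnar1 and Ifngr1, receptor chains for type I interferon and for interferon gamma, differed by 0.09 and 0.19, Ifnar2 by 0.53 and Ifngr2 by -0.45, and the adjusted p of the 6 ran from 0.777 to 0.923.

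Signalling genes downstream of the receptors showed a few wider steps. Of 9 tested kinases, STAT factors and inhibitors 6 were higher (background 57.0%) and 3 lower, and none passed. Socs3, an inhibitor of cytokine signalling downstream of Stat3, read 8.84, 9.79 and 10.25 in controls and 10.91, 12.40 and 12.48 in deficient samples, and Ptpn1, a phosphatase that acts on Jak2 and Tyk2, differed by 0.88. Both had separate groups and limma adjusted p of 0.659 and 0.666. Stat3, named after its values were seen, also had separate groups, with a difference of 0.55 (limma adjusted p 0.672). Thus 3 of the 9 were higher and separate (background 9.36%). Of 7 tested genes of nucleic acid sensing 5 were higher (background 57.0%). Among them Myd88, the adaptor of Toll-like receptors, differed by 0.71 (limma adjusted p 0.666). It was the 1 gene of the 7 that was higher and separate (background 9.36%). Mavs, the adaptor of RIG-I and MDA5, differed by -0.21.

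In a wider list of 30 other interferon-stimulated genes, control replicate 1 was again often the highest array. Of 25 tested, 17 were higher (background 57.0%) and 8 lower over all arrays, with a median of 0.17. Over the 4 arrays 22 were higher (background 58.3%) with a median of 0.55, and between the other 2 the median was -0.39. Control replicate 1 was highest for 13 of 25 (background 17.2%). Trim30a, a regulator of inflammatory signalling, differed by 1.53 (5.88, 5.15 and 5.22 in controls, 7.06, 7.77 and 6.01 in deficient samples). Pnpt1, a mitochondrial RNA exonuclease, differed by 0.48. Both had separate groups, with limma adjusted p of 0.659 and 0.667. They were the only 2 of the 25 that were higher and separate, no more than the share of all genes (background 9.36%).

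A list of genes grouped here as preferring interferon gamma had a larger median difference than the members, and the 2 lists were not tested against each other. Whether interferon gamma induced these genes here was not tested. Of 10 listed, 7 were tested and 6 were higher (background 57.0%), with a median of 1.82 against 0.40 for the members and 0.06 for all genes. In 4 of the 7 every deficient array lay above every control array (background 9.36%). Ciita was the 1 lower gene, with a difference of -0.05 (limma adjusted p 0.993). Cxcl10 and Cxcl9, attractants of activated T cells, differed by 2.77 and 3.90. Cxcl10 read 5.94, 6.67 and 5.35 in controls and 8.67, 9.66 and 7.94 in deficient samples, so that its groups separated on all arrays as those of Ifit2 did. Both had a limma adjusted p of 0.659. The median of the list was 2.85 over the 4 arrays and 0.24 between the 2 with small intestine genes.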

How the data were processed

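The authors deposited 1 log2 value per probe set and array, made with GCRMA, per the submitters' processing notes, with version not given in the sources used here. GCRMA subtracts background, so unbound probe sets share a floor (2.25) and differences near it are compressed. Of 45101 probe sets 34958 named 1 gene in the platform annotation and were used. Probe sets above log2 4 on at least 3 of 6 arrays were kept, and each gene was its brightest kept probe set. The test was limma 3.58.1 under R 4.3.3 (deficient against control, two-sided, no covariate, Benjamini-Hochberg over 10491 genes, threshold 0.05), checked on simulated data first. With 3 arrays a group the number of arrays limits precision. Intervals are limma's 95% intervals. Array values are shown for members with separate groups or an unadjusted p under 0.05 and, per role group, for the largest and smallest difference; other exceptions are stated. From each pathway list the 2 genes of smallest p, and Ifngr1, Ifnar1, Ifnb1 and Ifng, were named; 1 further gene of that rule is not reported here. Members and lists were chosen with earlier results of these data known. Alternatives changed 1 choice at a time: filter, normalization, probe set choice, variance model, array weights, a floor, a replicate block, bowel profile as a block, and arrays left out.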

Additional observations from a re-analysis of the deposited data

How the results depend on the processing

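In each alternative run 0 members passed at an adjusted p under 0.05, and in the main fit over all 6 arrays 0 also passed at 0.1. With array weights some named members did fall below 0.1, among them Bst2 and Oas1a (limma adjusted p 0.0913 and 0.0944). The lowest adjusted p of a named member was 0.0579, for Ifit2 with array weights, where 2 of all genes passed at 0.05 (0 otherwise). In the interaction test 0 members passed in the settings tried, while without a filter 572 of all genes did, against 0 with it. The run without a filter also holds genes at the floor with almost no spread on the 4 arrays that supply the error, such as Socs1. Its 572 genes are therefore not read as interactions, and the part of such floor genes was not tested. The count of members higher at an unadjusted limma p under 0.05 was 2 with quantile normalization and 17 with array weights. It was 14 without both arrays with small intestine genes (background 9.0%) and 1 to 8 in fits without 1 array. That of members lower was 0 without both (background 4.93%). Members above every control array numbered 21 without both (background 30.5%) and 4 to 16 without 1 array. Where no background is given, here or for the replicate block below, the counts cannot be read as particular to the members. Of 13 named members 9 kept their direction in all settings. Trim25 turned to 5e-04 with median centring, 0.19 with the mean of probe sets, 0.23 with array weights and 0.15 without both, and ran from -0.14 to 0.12 without 1 array. Cmpk2 turned to 0.52 with array weights and 0.39 without both (-1.24 to 0.50 without 1 array), Ifit1 to 0.19 with array weights and 0.0942 without control replicate 1 (-0.59 to 0.09), and Ddx58 to 0.11 without both (-0.32 to 0.18). The weights were 0.38 for control replicate 1 and 7.25 for deficient replicate 1; otherwise the cause was not tested. Arrays with the same replicate number had correlations of -0.54, 0.36 and -0.61 for replicates 1 to 3. Replicates 1 and 3 each set an array with small intestine genes against one without. These values therefore cannot decide whether replicate numbers pair the arrays. With a replicate block 4 members were higher and 1 lower, with Irf9 (unadjusted limma p 0.0169) in place of Ifih1 (0.102), and the median was 0.40.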
